A study of Sus scrofa with 8 samples.

Results

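A set of 10 genes that mark endothelial cells and blood cells was examined in pig embryonic fibroblasts (PEFs): CDH5, PECAM1, TEK, TIE1, TAL1, LYL1, SPI1, PTPRC, VWF and CD34. They were chosen by name, for what they are known to do, but with earlier results of these data known. All 10 were found among the 19487 protein-coding genes that RefSeq places on chromosomes 1 to 18 and X of the pig genome Sscrofa11.1. For each gene, peaks of H3K4me3, H3K27ac and the DNA-binding protein CTCF were collected within 1 kb of the transcription start site (TSS), in the gene body, and within 100 kb.

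Endothelial cells line blood vessels, and in the embryo blood cells arise from specialised endothelium, so both lineages share part of their regulators. Their identity genes are usually kept off in fibroblasts, which belong to the connective tissue. H3K4me3 is a histone mark of gene starts, including starts that are poised but not in use. H3K27ac marks active starts and enhancers, and CTCF binds boundaries and loop anchors of chromatin.

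The PEFs were grown from Large White fetuses at an age of 35 days, were cultured for 24 h, and received no treatment, so all 6 libraries represent 1 condition and the design compares no groups. H3K4me3, H3K27ac and CTCF were each profiled in 2 replicates by ChIP-seq, which sequences the DNA fragments that an antibody pulls down. Nothing in the labels says that the replicates were separate cultures, so the spread between them may be technical. PEFs are a mixed primary culture, and in such a bulk sample a mark on fewer cells and a weaker mark per cell cannot be told apart.

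The 6 deposited peak lists held between 37932 and 81164 peaks. Each peak has a fold enrichment, which is its signal over the control, and the lists hold no read counts, so how many reads lie behind a value is not known. Of 18 fibroblast marker genes, 17 had both histone marks at the TSS in both replicates, and the exception was SPARC, a matrix protein, with H3K27ac at 27.7 and 49.7 but H3K4me3 in replicate 1 only. Of 8 epithelial markers, 7 had H3K4me3 alone and CLDN4, a tight junction protein, had both marks. Among all protein-coding genes, 58.9% had both marks in both replicates and 8.25% had H3K4me3 alone.

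The sequences that the results below turn on are printed here from the RefSeq genome, 5′ to 3′. Promoters and internal summits are on the strand of the gene, with every CpG in capitals. The 200 bases before the TSS are shown for CD34, which had H3K4me3 alone (chr9:134912593-134912792, plus strand), and for the silent genes TIE1 (chr6:167947254-167947453, minus strand) and PTPRC (chr10:21482784-21482983, plus strand). They are 3 of the 10 starts and were chosen as examples, not as typical of their states.
CD34 promoter: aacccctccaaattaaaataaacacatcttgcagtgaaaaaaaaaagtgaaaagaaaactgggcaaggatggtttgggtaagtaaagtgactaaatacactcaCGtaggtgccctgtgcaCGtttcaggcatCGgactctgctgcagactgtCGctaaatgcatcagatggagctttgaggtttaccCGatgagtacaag
TIE1 promoter: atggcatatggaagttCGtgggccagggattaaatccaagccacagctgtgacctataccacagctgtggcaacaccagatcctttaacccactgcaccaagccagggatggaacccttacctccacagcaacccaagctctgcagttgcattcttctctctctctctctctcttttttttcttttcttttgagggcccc
PTPRC promoter: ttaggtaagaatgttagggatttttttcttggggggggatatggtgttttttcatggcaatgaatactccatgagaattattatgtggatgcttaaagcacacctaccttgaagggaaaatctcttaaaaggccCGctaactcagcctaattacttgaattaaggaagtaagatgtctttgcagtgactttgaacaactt

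The next pair shows 200 bases around the H3K4me3 summits that lay inside SPI1 (chr2:15244412-15244611, plus strand, of which 163 bases are exon) and inside an intron of VWF (chr5:64572707-64572906, plus strand), far from the annotated starts of those genes.
SPI1 internal summit: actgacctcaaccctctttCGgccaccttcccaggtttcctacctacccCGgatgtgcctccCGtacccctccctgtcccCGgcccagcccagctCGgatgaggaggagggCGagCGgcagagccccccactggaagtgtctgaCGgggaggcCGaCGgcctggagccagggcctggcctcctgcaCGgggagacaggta
VWF internal summit: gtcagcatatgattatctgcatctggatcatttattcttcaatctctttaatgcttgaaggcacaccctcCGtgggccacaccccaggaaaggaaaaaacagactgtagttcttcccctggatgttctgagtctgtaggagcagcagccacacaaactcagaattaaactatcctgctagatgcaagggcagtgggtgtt

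The last pair shows CTCF sites within introns of SPI1 (chr2:15232133-15232174) and PTPRC (chr10:21531737-21531778), both printed from the minus strand, opposite to the gene, with the core of the CTCF motif alone in capitals.
SPI1 CTCF site: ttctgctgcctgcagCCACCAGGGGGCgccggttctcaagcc
PTPRC CTCF site: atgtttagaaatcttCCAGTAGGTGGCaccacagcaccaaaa

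A TSS was called active where both histone marks had a peak within 1 kb in both replicates, H3K4me3 only where H3K27ac was missing from both, silent where neither mark had a peak in any of the 4 libraries, and mixed otherwise. By this rule TAL1 was active, CD34 had H3K4me3 only, LYL1 and SPI1 were mixed, and CDH5, PECAM1, TEK, TIE1, PTPRC and VWF were silent. Among all protein-coding genes 58.9% were active, 8.25% had H3K4me3 only, 27.5% were silent and 5.33% were mixed. Thus 6 of the 10 genes were silent and 1 of 10 was active, against 27.5% and 58.9% of genes at large. The plot of fold enrichment by library shows the same pattern gene by gene.

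**Figure D1:**
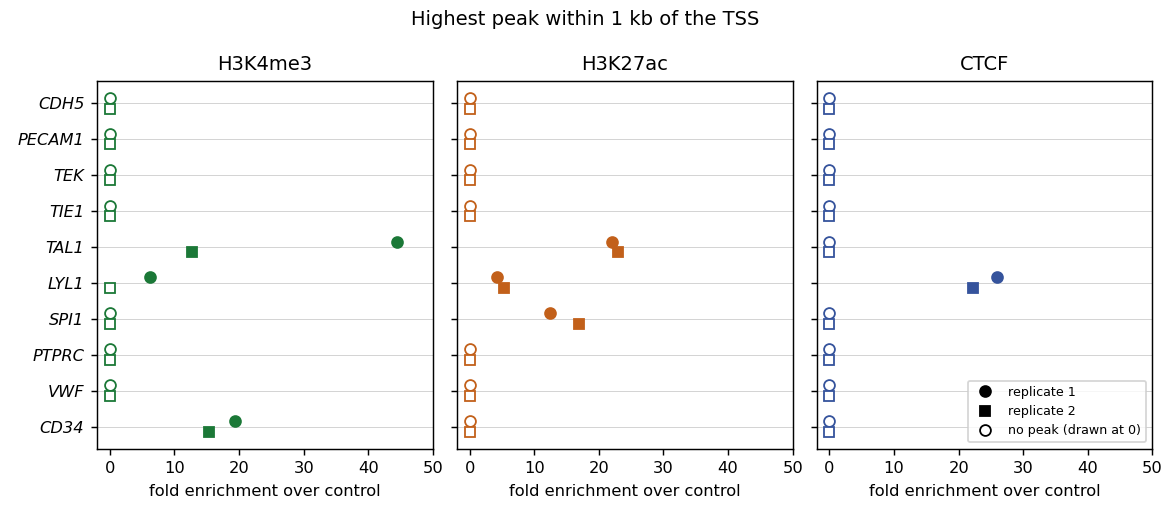
Fold enrichment over control (x axis) of the highest peak within 1 kb of the TSS of each gene (y axis), for H3K4me3, H3K27ac and CTCF, with circles for replicate 1, squares for replicate 2, and open symbols at 0 where a library had no peak. TAL1 had both histone marks, CD34 H3K4me3 at 19.4 and 15.3, SPI1 H3K27ac alone, LYL1 weak histone marks beside CTCF, and the other 6 genes no peak.

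CDH5 and PECAM1 encode adhesion molecules of the junctions between endothelial cells, and PECAM1 is also found on platelets and leukocytes. CDH5 (VE-cadherin, chr6:27108560-27142145, plus strand) had no peak of any of the 3 proteins within 1 kb of its TSS. The closest H3K4me3 peak lay 27.3 kb upstream in replicate 1 and 12.8 kb downstream in replicate 2. Inside the gene, 1 intronic H3K27ac peak was present in both replicates, 13.0 kb from the TSS, with a fold enrichment of 5.41 and 6.22. CDH5 lies in a sparse neighbourhood, since the nearest protein-coding start upstream, LOC106507571, was 1170.0 kb away and the nearest downstream, BEAN1, 67.5 kb. The nearest active gene was TK2, 147.0 kb downstream.

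PECAM1 (chr12:14667643-14723296, plus strand) also had no TSS peak, but its body held 5 H3K27ac peaks that were present in both replicates. The strongest had fold enrichments of 11.9 and 13.4, with summits 37.1 and 35.7 kb into the gene, and it was broad, covering a smaller H3K4me3 peak of 8.02 and 6.62 at 37.7 kb. The next had 6.31 and 12.9 at 21.3 and 21.0 kb, and another had 7.34 and 8.53 at 48.2 and 48.1 kb. The marked interior of PECAM1 therefore contrasts with its unmarked start, and the pattern was shared by both replicates. The annotated start nearest to the strongest of these peaks was that of LOC110255989, 16336 bp away, and it was 6098 bp from the peak at 48.2 kb. The protein-coding neighbours of PECAM1 were MILR1, 29.7 kb upstream and mixed, and TEX2, 96.8 kb downstream and active. POLG2, 85.6 kb upstream, was the nearest active gene.

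TEK and TIE1 encode the Tie receptor tyrosine kinases, of which TEK binds the angiopoietins and TIE1 modulates it. TEK (chr1:195938177-196052294, minus strand) was among the least marked of the 10 genes. No H3K4me3 summit lay within 100 kb of its TSS in either replicate, and the nearest H3K4me3 peak was 120.0 kb upstream in both. A single intronic H3K27ac peak at 12.2 kb had a fold enrichment of 4.95 and 7.06. Other annotated starts of TEK, 22.8 kb into the gene, had no histone peak either, and TEK stayed silent when all transcript starts were counted. Its neighbours LRRC19, 77.5 kb upstream, and LOC102166359, 157.0 kb downstream, were silent too, and the nearest active gene was IFT74, 122.0 kb upstream.

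TIE1 (chr6:167919662-167947253, minus strand) was silent at the 5′ end of the gene and marked at the innermost of its annotated starts. The other inner starts, at 6.57 kb, had no histone peak within 1 kb. H3K4me3 covered an annotated start of 2 transcripts at 9.96 kb with a fold enrichment of 46.1 in replicate 1 and 14.9 in replicate 2, and with a width of 1641 and 1738 bp. H3K27ac at the same place was found in replicate 1 only, at 3.06. A weaker H3K4me3 peak lay near the 3′ end, with 9.01 and 3.94, and its summit in replicate 1 lay at 25.2 kb. The 300 bases around the 5′ end of TIE1, from 250 bases before to 50 after it, are 96.3% repeat-masked sequence in the RefSeq genome, more than in 98.5% of promoters. By contrast, the 200 bases before the marked inner start, which all lie in exons, hold 26 CpGs, with 0.879 CpG observed over expected. The 200 bases before the 5′ end hold 1 CpG, with 0.0858. The CpG ratio compares the CpGs seen with those that the C and G content would give. With all transcript starts counted, TIE1 became mixed. C6H1orf210, 12.6 kb upstream, was a silent neighbour, and CDC20, 56.7 kb downstream, was the nearest active gene.

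TAL1, LYL1 and SPI1 are transcription factors. TAL1 and LYL1 are closely related basic helix-loop-helix proteins needed in blood stem cells, and SPI1 (PU.1) is an ETS factor that directs myeloid and B cell fate. TAL1 (chr6:164282242-164297636, plus strand) was the only active gene of the 10. Its H3K4me3 fold enrichment was 44.5 in replicate 1 against 12.7 in replicate 2, with a mean of 28.6 ± 22.5 (SD, n = 2). Its H3K27ac fold enrichment was 22.1 and 22.9, or 22.5 ± 0.566 (SD, n = 2). The replicates were thus close for H3K27ac and far apart for H3K4me3. In active genes the H3K4me3 peak of replicate 1 was at the median 2.04 times that of replicate 2, and the ratio of 3.5 at TAL1 was above that of 98.8% of the 11476 active genes.

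The H3K4me3 peak of TAL1 was unusually wide. It spanned 8752 bp in replicate 1 and 8443 bp in replicate 2, wider than 99.5% and 99.2% of the peaks in the respective lists, against medians of 2941 and 3115 bp at active TSSs. The domain ran from about 1 kb before the TSS to 7707 and 7447 bp after it, which takes in all 4 annotated starts of TAL1, the last of them at 6.69 kb. H3K27ac covered 5140 and 5986 bp of the same interval, with a further weak H3K27ac peak of 3.14 and 6.32 past its end. The H3K4me3 summits lay 1040 and 1868 bp from the TSS, so TAL1 became mixed when a summit, rather than any base of a peak, had to fall within 1 kb. Both neighbours, STIL at 84.7 kb upstream and PDZK1IP1 at 32.5 kb downstream, were active.

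LYL1 (chr2:65950608-65956423, plus strand) is short, at 5.82 kb, and had weak marks just before its start. H3K4me3 was 6.28 in replicate 1 and had no peak in replicate 2. H3K27ac was 4.23 and 5.31, or 4.77 ± 0.764 (SD, n = 2), and the peaks ended 300 and 139 bp before the TSS. CTCF was stronger, at 25.9 and 22.2, with summits 858 and 855 bp upstream. LYL1 was the only one of the 10 genes with CTCF at the TSS in both replicates, against 17.9% of protein-coding genes. Without replicate 2, or with a window of 5 kb, LYL1 became active. Inside the gene, 3.55 and 3.69 kb from the TSS for H3K4me3, both histone marks recurred in both replicates, H3K4me3 at 5.7 and 6.15 and H3K27ac at 3.65 and 6.23. TRMT1, 10.5 kb upstream, and NFIX, 106.0 kb downstream, were active neighbours.

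SPI1 (chr2:15227850-15245679, plus strand) had H3K27ac without H3K4me3 at its start. The H3K27ac fold enrichment was 12.4 and 17.0, or 14.7 ± 3.25 (SD, n = 2), and the peaks began 99 and 469 bp after the TSS. This combination, H3K27ac in both replicates with H3K4me3 in neither, was found in 283 protein-coding genes, or 1.45%. With summits at 1383 and 1441 bp, SPI1 became silent when a summit had to fall within 1 kb.

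The strongest marks of SPI1 lay at the other end of the gene. An exonic region 16.7 kb from the TSS had H3K27ac at 35.5 and 44.3, above 99.2% and 99.6% of H3K27ac peaks, and H3K4me3 at 39.6 and 21.6. No start of SPI1 is annotated there, and the nearest annotated start of any gene was that of MYBPC3, 1815 bp from the H3K4me3 peak, which was silent. The SPI1 internal summit sequence above, which holds 11 CpGs and has a ratio of 0.475, comes from this peak. The nearest active gene was SLC39A13, 24.9 kb upstream.

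**Figure D2:**
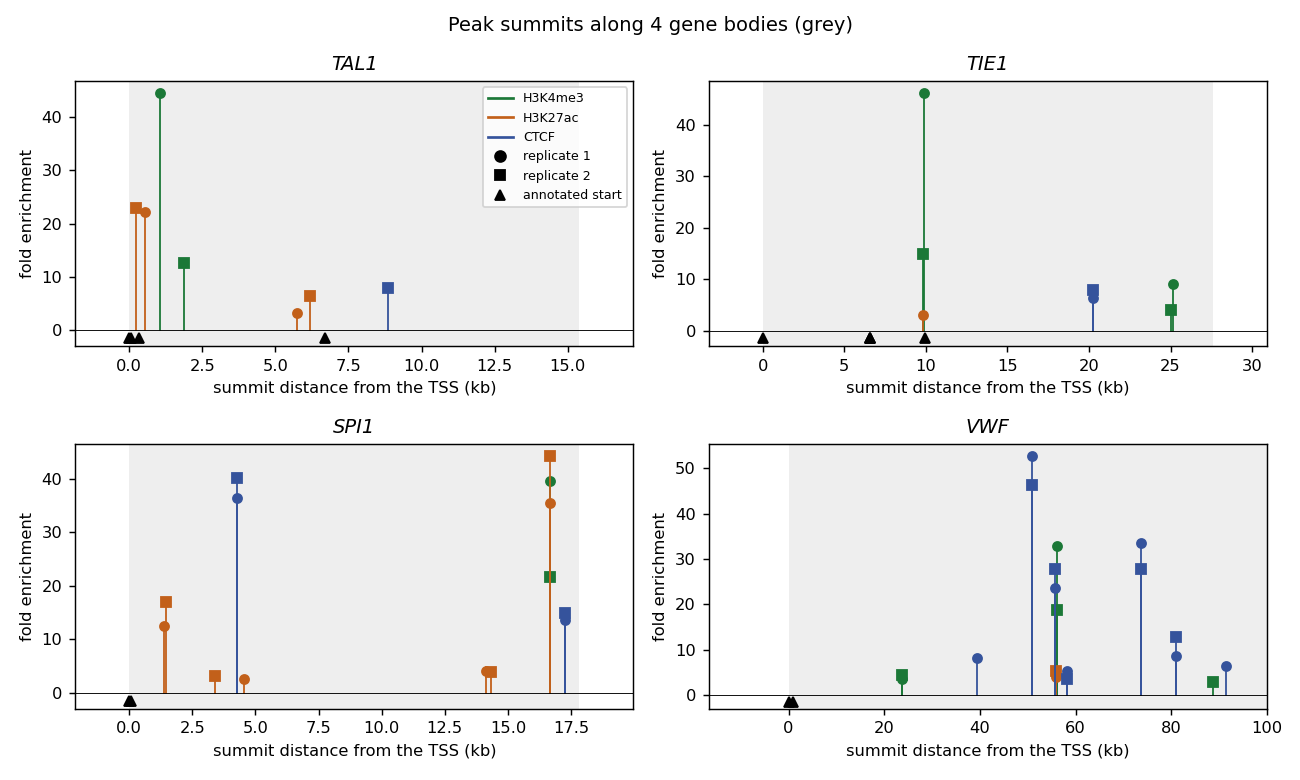
Fold enrichment (y axis) of peak summits against distance from the TSS in kb (x axis) in TAL1, TIE1, SPI1 and VWF, with circles for replicate 1, squares for replicate 2, grey for the gene body (VWF is drawn to 100 kb) and triangles for annotated transcript starts. H3K4me3 stood at the start in TAL1 but at 9.88 kb in TIE1, 16.7 kb in SPI1 and 56.2 kb in VWF, and of these 3 inner peaks that of TIE1 alone covered an annotated start. A further H3K4me3 peak upstream of TAL1, at 35.7 and 16.9, lies outside the drawn range.

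PTPRC, VWF and CD34 encode proteins at the surface of the cells or secreted by them. PTPRC (CD45, chr10:21482984-21601627, plus strand) is the tyrosine phosphatase carried by all nucleated blood cells. It was the only one of the 10 genes with no summit of H3K4me3 or H3K27ac within 100 kb in any of the 4 libraries, a state shared by 4.36% of protein-coding genes. The nearest H3K4me3 peaks were 138.0 and 137.0 kb downstream, and the nearest H3K27ac peaks 123.0 and 124.0 kb downstream. Its neighbour ATP6V1G3, 88.2 kb upstream, was silent, and LOC110255652, 296.0 kb downstream, was both the nearest gene on that side and the nearest active gene.

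VWF (chr5:64516627-64655938, plus strand) encodes the von Willebrand factor, which endothelial cells and platelets secrete to bind platelets to damaged vessels. Its TSS was silent and, as at TIE1, most of the 300 bases around it (94.0%) are repeat-masked. The median over all promoters was 9.67%, and the authors kept only uniquely mapped fragments. The part of mapping in these silent calls was not tested, and it is not known whether the annotated 5′ ends of TIE1 and VWF are starts in use, so silent refers to the annotated position. An intronic H3K4me3 peak at 56.2 kb had a fold enrichment of 32.8 and 18.8, and H3K27ac next to it 4.02 and 5.4. CTCF bound within the same stretch at 55.8 kb, with 23.7 and 27.9, so that all 3 marks came together there. The nearest annotated start of any gene was 54603 bp from that H3K4me3 peak, and the 200 bases around its summit hold 1 CpG. CD9, 56.8 kb upstream, was active, and ANO2, 143.0 kb downstream, had H3K4me3 only.

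CD34 (chr9:134912793-134937763, plus strand) encodes a sialomucin of blood stem cells, small vessels and some fibroblast-like cells. It had H3K4me3 at 19.4 and 15.3, or 17.4 ± 2.9 (SD, n = 2), and no H3K27ac in either replicate. The H3K4me3 peak of CD34 was 1696 and 1228 bp wide, much narrower than that of TAL1. In the 1608 genes with H3K4me3 only, the median fold enrichment was 20.6 in replicate 1 and 11.4 in replicate 2. CD34 was slightly below the median in replicate 1, and in replicate 2 it was above it, near the upper quartile of 16.1. Its ratio of replicate 1 to replicate 2, 1.27, was above that of 14.1% of these genes, whose median was 1.76. The nearest H3K27ac peaks were 38.8 and 38.4 kb downstream, at 3.15 and 2.63. The neighbours LOC102160111, 53.4 kb upstream, and LOC102160414, 42.4 kb downstream and the nearest active gene, were active.

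Peaks in the gene bodies were counted when no base of the peak fell within 1 kb of the TSS, so the TSS peaks of TAL1, CD34 and SPI1 that run on into the gene are not among them. By this count, 7 of the 10 genes had an H3K27ac peak in both replicates, against 42.8% of protein-coding genes. Separate H3K4me3 peaks were found in both replicates in 5 bodies (PECAM1, TIE1, LYL1, SPI1 and VWF), against 30.4%. Gene length differs between these sets, with a median of 30.59 kb for the 10 genes and 20.7 kb for all, and a longer body can hold more peaks. Its part in these counts was not tested. Of the 6 genes with a silent TSS, CDH5, PECAM1, TEK and VWF had H3K27ac inside the gene in both replicates, TIE1 had it in replicate 1 alone, and PTPRC had none.

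Within 100 kb of the TSS, the genes ranged from empty to crowded, as the map of the 10 loci shows. The median number of H3K4me3 peaks over the 10 genes was 7.0 and 7.5 in the 2 replicates, against 5.0 and 6.0 over all protein-coding genes. The medians for H3K27ac were 9.0 and 11.5, against 8.0 and 9.0. PTPRC stood at one end, with no histone peak. LYL1 stood at the other, with 28 and 32 H3K27ac peaks, more than 99.0% of protein-coding genes had in each replicate. SPI1 followed with 19 and 23, and TEK had 3 and 3. Of the H3K27ac peaks around LYL1, 24 and 28 lay over 1 kb from any annotated start.

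**Figure D3:**
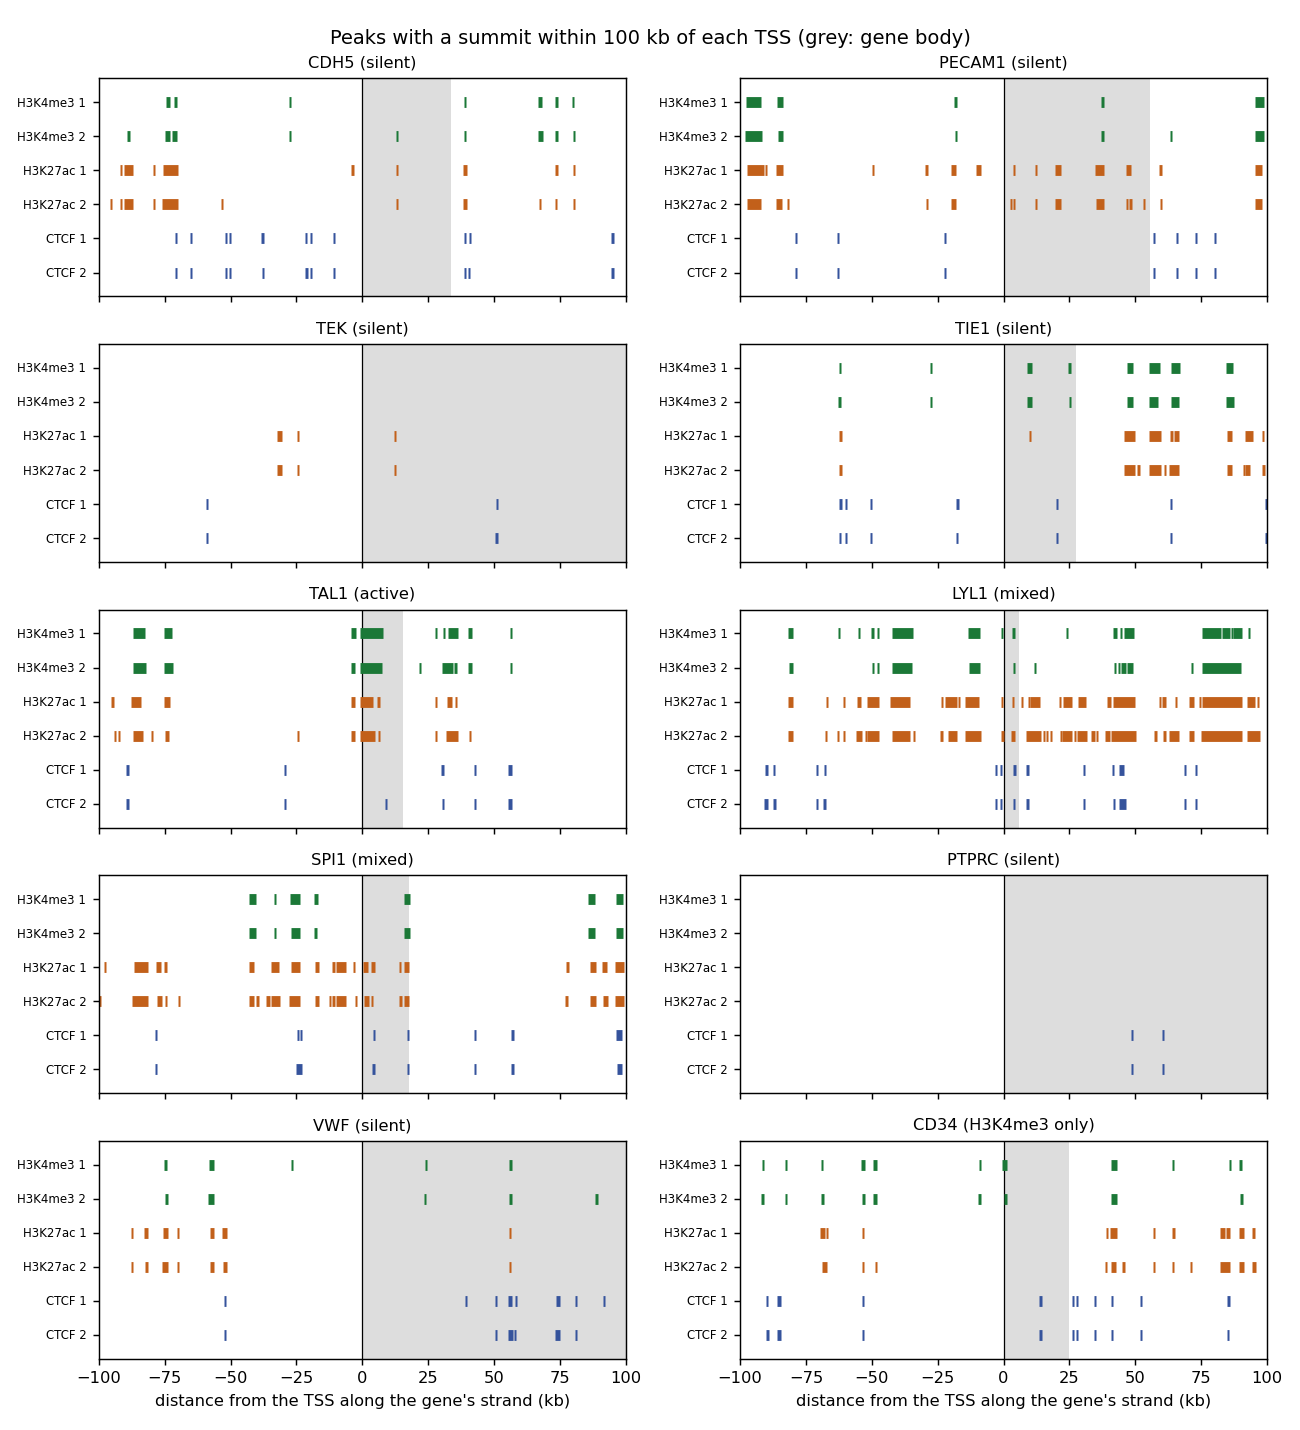
Peaks of the 6 libraries (rows) whose summits lay within 100 kb of the TSS of each gene, drawn along the strand of the gene (x axis, kb), with the gene body in grey and narrow peaks widened to 0.8 kb so that they can be seen. PTPRC had only 2 CTCF peaks in each replicate, TEK had 3 H3K27ac and no H3K4me3 peaks, and LYL1 had 28 and 32 H3K27ac peaks.

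The strongest H3K27ac peak within 100 kb that was present in both replicates and lay over 1 kb from any start was found for 9 of the 10 genes. It was inside the gene for PECAM1, TEK and SPI1. At TAL1 it lay 3.72 and 3.69 kb upstream, with 12.8 and 14.9, and H3K4me3 peaks overlapped it with 35.7 and 16.9. In replicate 2 this H3K4me3 value was above that at the TAL1 TSS, 12.7. At VWF the strongest such H3K27ac peak lay 52.4 and 52.3 kb upstream, with 17.5 and 23.6. At LYL1 it lay 48.2 kb downstream, with 30.1 and 34.7. These peaks are given by distance alone, and whether they act on the named genes was not tested.

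CTCF peaks were found in both replicates in the bodies of 7 of the 10 genes, against 42.5% of protein-coding genes. VWF held 7, PTPRC 3, TEK and SPI1 2 each, and TIE1, LYL1 and CD34 1 each. VWF, PTPRC and TEK are also the longest of the 10 genes, at 139.0, 119.0 and 114.0 kb. A longer body can hold more CTCF peaks too, and the part of length in this count was not tested. The highest value in replicate 1 was 52.7, at 50.8 kb in VWF, with 46.3 in replicate 2, and the highest in replicate 2 was 51.4, at 51.0 kb in TEK, with 40.0 in replicate 1. The core of the CTCF motif lay within 50 bp of the summit in 16.5% and 15.6% of all CTCF peaks, and in 0.0677% and 0.0611% of places 1 kb from the summits. The core was found at 3 sites in VWF and 1 each in TEK, SPI1 and PTPRC. The SPI1 site printed above, 4.28 kb into the gene with 36.4 and 40.1, and the PTPRC site at 48.8 kb, with 22.1 and 29.6, both had it on the strand opposite to the gene.

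The distance between the nearest CTCF summits on both sides of the TSS was 187.0 kb at PTPRC in both replicates, and no H3K4me3 or H3K27ac summit fell within it. It was 110.0 kb at TEK, where the interval held 3 H3K27ac summits. At LYL1 it was 4.93 and 4.9 kb. The medians over protein-coding genes were 60.4 and 53.9 kb, so PTPRC and LYL1 were on opposite sides of them. TAL1 differed between replicates, with 59.9 and 38.2 kb, because a CTCF peak of 7.94 inside the gene was called in replicate 2 alone.

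The sequence of the promoters was a property that the choice of genes did not use. TAL1 had 42 CpGs in the 300 bases around its TSS and a CpG ratio of 1.07, above 95.8% of promoters. The other 9 genes lay between 0.0931 at PTPRC, which has 1 CpG there, and 0.446 at VWF. Over all promoters the median was 0.792 for active, 0.698 for H3K4me3 only, 0.266 for silent and 0.366 for mixed genes. TAL1 thus lay above the median of its state, and CD34, at 0.414, below the lower quartile (0.459) of genes with H3K4me3 only. CDH5 was GC-rich, with 70.3% G and C, but had a CpG ratio of 0.432. The median over the 10 genes was 0.303, against 0.65 for all promoters.

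**Figure D4:**
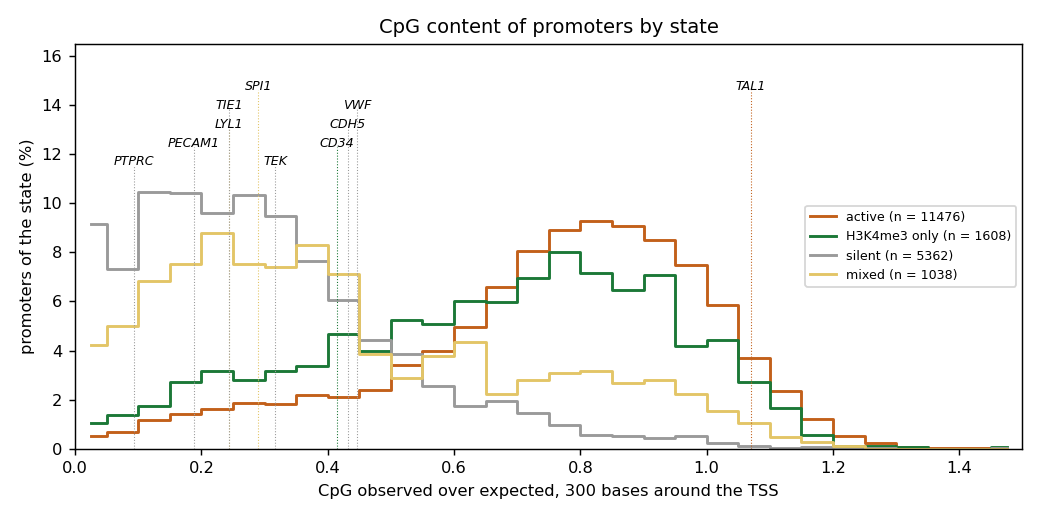
Share of the promoters of each state (y axis, %) by CpG observed over expected in 300 bases around the TSS (x axis, bins of 0.05), with dotted lines at the values of the 10 genes, coloured by their state. TAL1 lay at 1.07 among active promoters, and the other 9 genes lay at 0.446 or lower.

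Short words that resemble binding sites were searched on both strands of the same 300 bases. GGAA, the core of ETS sites, was present in 9 of the 10 genes, all but VWF, and in 95.2% of promoters. CAGNTG, an E-box of the kind that TAL1 and LYL1 bind with their partners, was present in 5 of the 10 and in 49.2% of promoters. AGATAA was present in TAL1 alone, on the reverse strand, and in 9.05% of promoters. It is the word that GATA1 and its relatives, which work with TAL1, bind. TATAAA was present in none of the 10 and in 10.8% of promoters. The shares in the 10 genes were thus near those of promoters at large.

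Other genes of the same lineages were taken from lists and read by the same rule. Of 24 further endothelial genes, 5 were active, 7 had H3K4me3 only, 5 were silent and 7 were mixed. Their active share was 20.8%, against 58.9% of all protein-coding genes. Their silent share was 20.8%, against 27.5%, and their share with H3K4me3 only was 29.2%, against 8.25%. The active ones were ERG, an ETS factor, ENG and ACVRL1, which are receptors of the TGF-beta family, S1PR1, a lipid receptor, and CLEC14A. ENG was the gene of the lists most like TAL1 over the 6 libraries, with H3K4me3 at 47.8 and 20.7 and H3K27ac at 18.6 and 21.0, at a Euclidean distance of 0.72 on log2(fold enrichment + 1). Those with H3K4me3 only were the VEGF receptors KDR and FLT4, the factors SOX17, SOX18 and PROX1, and the junction proteins ESAM and CLDN5. KDR, with 25.4 and 13.3, was near CD34 in this respect. SPI1 shared its combination of marks with 4 endothelial genes, ROBO4, NOS3, PLVAP and MMRN2, and with the blood gene TYROBP, and ROBO4 was the most like it, at a distance of 0.485.

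Of 13 blood transcription factors, 4 were active (GATA2, RUNX1, MYB and NFE2), 4 had H3K4me3 only (IKZF1, GFI1, GFI1B and IRF8), 3 were silent and 2 were mixed. Their active share was 30.8%, against 58.9% of all protein-coding genes. Their share with H3K4me3 only was 30.8%, against 8.25%, and their silent share was 23.1%, against 27.5%. GATA2, which acts with TAL1 in blood stem cells, had strong H3K4me3 at 69.7 and 29.1 but weak H3K27ac at 3.73 and 4.02. RUNX1 had 16.7 and 10.6 for H3K4me3 and 14.0 and 14.5 for H3K27ac. LMO2, the bridging protein of the TAL1 complex, was silent.

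Of 24 proteins of mature blood cells, 12 were silent as PTPRC was. Their silent share was 50%, against 27.5% of all protein-coding genes, and their active share was 33.3%, against 58.9%. The 8 active ones were LAPTM5, PTPN6, FGR, ITGAL, CD14, CD68, WAS and NCF4, those with H3K4me3 only included CORO1A and LCP1, and TYROBP was mixed. CD68, a lysosomal protein, had the highest H3K4me3 in replicate 1 among these, 87.1, with 35.5 in replicate 2. LCP1 was the most like CD34, at a distance of 0.238, with H3K4me3 at 17.8 in both replicates. For LYL1 the closest was the epithelial gene CLDN4, at 2.9, the largest of the 4 distances computed.

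Among 19 genes whose products work with the 10, 11 were active, 7 were silent and 1 was mixed. The active share, 57.9%, was near the 58.9% of all protein-coding genes. The active ones included ANGPT1, a ligand of TEK, the catenins CTNNB1, CTNND1 and JUP that bind cadherins, and TCF3, TCF12, LDB1 and RUNX1, which join TAL1 in complexes. The rest were CEBPA, ADAMTS13, which cleaves VWF, and PTPN11. ANGPT1 had H3K4me3 at 9.92 and 11.9 and H3K27ac at 10.1 and 10.6, whereas its receptor TEK had no peak at the TSS. ANGPT2, another ligand of TEK, was mixed, with H3K27ac at 7.67 in replicate 1 only. The silent partners included PTPRB, ANGPT4, LMO2, GP1BA, F8 and LCK, of which several are themselves genes of vessels or blood. RUNX1, LMO2 and PTPRB each stood in more than 1 list.

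**Figure D5:**
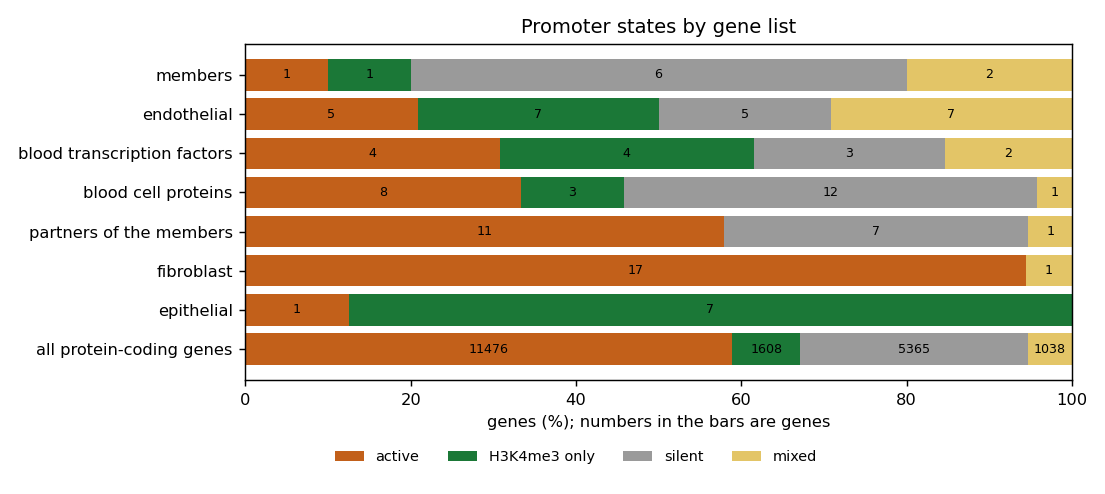
Share of genes (x axis, %) in each promoter state for the 10 genes (members), the related lists and all protein-coding genes, with the number of genes in the bars. The 10 genes were mostly silent (6 of 10), the fibroblast list mostly active (17 of 18), and the epithelial list mostly H3K4me3 only (7 of 8).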

How the data were processed

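ChIP-seq of H3K4me3, H3K27ac and CTCF in untreated PEFs gave 2 libraries each, assigned by their labels. The authors aligned the reads with bowtie2 and dropped fragments without a unique position and, with Picard, duplicates. MACS2 then called narrow peaks library by library over a control (versions not given in the sources used here). By the methods, peaks of the replicates were afterwards merged at an irreproducible discovery rate, a measure of agreement between replicates, of 0.01. The lists used here are those of single libraries. The deposited lists give, for each peak, the fold enrichment (ratio to control), the −log10 of its p-value and q-value, a summit position, and a score derived from the q-value that was not used. The q-value threshold in the methods is 0.01, but the highest q-value per list was between 0.0432 and 0.0499, and the lists were used as deposited. The input libraries and the Hi-C data were not analysed here. The ChIP-seq peaks were read on Sscrofa11.1, the assembly that the methods name for the other data of the study.

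The TSS was the 5′ end of the RefSeq gene. A peak counted at a TSS when at least 1 bp overlapped the window of 1 kb on each side, in a gene body when it overlapped the gene and no base of that window, and within 100 kb by its summit. The background was 19487 protein-coding genes on chromosomes 1 to 18 and X, of 28077 genes. CpG values were computed for 19484 promoters without unknown bases. The CTCF core was searched within 50 bp of summits. No test was run, since there is 1 condition with 2 libraries per mark, and each replicate's value is printed, with the mean ± SD for marks at a TSS.

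The 10 genes and the lists were chosen with earlier results of these data known. By rule, all 10 genes were named, with their nearest neighbours, the nearest active gene and the most similar gene of the lists over 6 libraries, and of the lists those that were active or H3K4me3 only (endothelial, transcription factor and partner lists) or unlike most of their list (others). The other genes named from these lists were chosen after their values were seen. Some items that the rule names are not reported here. EGFL7 and CYBB of the lists were not on these chromosomes and not used here. Alternatives were −log10 q-values of at least 2 and 5, a window of 5 kb, summits in the window, all transcript starts, 50% shared overlap, leaving out each replicate, all RefSeq genes, a distance of 50 kb, peaks away from starts, and 500 bases on both sides for CpG content. The repeat-masked share and the ratio between replicates were added after the values were seen. Peak assignment and states were tested on simulated data. Python 3.11.15, numpy 2.4.6, pysam 0.24.0 and matplotlib 3.10.9 were used.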

Additional observations from a re-analysis of the deposited data

How the results depend on the processing

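The states of TEK, PTPRC, VWF and CD34 were the same under all 8 alternatives of the promoter rule, and those of the other 6 genes each changed under at least 1. With a window of 5 kb, 2 of the 10 genes were active (CDH5 and PECAM1 became mixed), as were 12506 of all protein-coding genes against 11476 with 1 kb, 10 endothelial, 13 blood cell protein and 3 epithelial genes. With summits required in the window, none (0) of the 10 genes was active, against 8126 of all protein-coding genes (6437 were silent and 3367 mixed), and active were 3 endothelial, 2 blood transcription factor, 3 blood cell protein, 5 partner and 7 fibroblast genes. All transcript starts gave 8 active endothelial genes, and 50% shared overlap gave 607 mixed genes. Leaving out a replicate gave between 1 and 2 active and between 1 and 2 mixed genes of the 10, and between 377 and 411 mixed genes of all. The median number of H3K4me3 peaks within 100 kb, averaged over replicates, was 7.25, and it became 6.5 with a −log10 q-value of at least 5, 6.5 with 50% shared overlap, 3.5 over 1 kb from starts and 3.25 within 50 kb. For H3K27ac 10.25 became 7.5, 7.0, 7.5 and 3.25 in the same order, and for CTCF 7.25 became 6.5, 6.0 and 2.75 in the last 3. The median CpG ratio of the 10 genes was 0.389 over 500 bases on both sides. The window and summit rules change which peaks count by construction. With a replicate left out, mixed can no longer arise from disagreement between replicates, so the number of mixed genes cannot rise by construction. Of the recomputed values, 29 moved and 139 did not. A count or a share of genes had moved when it changed by over 1.5 times. The CpG ratio has no replicates, and any change of it counted as moved. Any other value had moved when it changed by over 1 SD between replicates, which is wide for TAL1 H3K4me3. Leaving out 1 of 2 replicates shifts a mean by less than that SD. The fold enrichments and the medians within 100 kb could therefore not move when a replicate was left out, which says nothing of their stability. No paired analysis was possible because the results come from no test. The lists give no read counts, so a missing peak says only that none was called.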
